A study of Sus scrofa with 80 samples.

Results

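Solute carriers of the families SLC1, SLC3, SLC6, SLC7, SLC16, SLC17, SLC18, SLC32, SLC36, SLC38 and SLC43 move amino acids, neurotransmitters and monocarboxylates across membranes, and their transcripts were measured across tissues and ages of the Göttingen minipig. The members were all genes on the array that carry a symbol of one of these 11 families, which gave 61 of 23722 genes. SLC6 and SLC16 contributed 13 members each, SLC7 contributed 9, SLC38 contributed 7, SLC1 and SLC17 contributed 5 each, and the remaining families contributed 9 in all between them. The members were chosen by name and not by any measured value.

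The vesicular transporters of SLC17, SLC18 and SLC32 load glutamate, monoamines, acetylcholine or GABA into synaptic vesicles, and plasma membrane transporters of SLC1 and SLC6 take up the released transmitter. In kidney tubules and hepatocytes, members of SLC1, SLC3, SLC6, SLC7 and SLC38 recover or exchange amino acids, and the SLC3 proteins are heavy chains that bring SLC7 light chains to the membrane. Members of SLC16 carry lactate, pyruvate and ketone bodies, but some of them carry creatine or aromatic amino acids.

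The 80 arrays, a one-color custom design by Agilent, each measured total RNA from 1 of 9 tissues or, on 1 array, from the renal pelvis of the 2-year male. Cerebellum, cerebral cortex, hypothalamus, liver, kidney, spleen and bone marrow were sampled in both sexes, with 1 animal of each sex per age (after 1 and 4 weeks and after 2 and 4 months), and in a single male of 2 years. Testis was sampled in 1 male per age over all 5 ages, while ovary was sampled in 1 female per age and not at 2 years. The 8 technical repeats of the 2-year kidney were averaged and the renal pelvis array was left out, which gave 72 samples. The 56 samples of the 7 tissues with both sexes up to 4 months entered the tests. All animals were Göttingen minipigs from the same breeder, and the labels name no treatment other than euthanasia with pentobarbital. The 2-year male differed from the others in that it was moved as a juvenile to another site, ate another food and received another pentobarbital product. The sexes are the only repeats within a tissue and age, and the labels do not tie tissues to animals, so p-values measure only the spread between these samples. The pieces of tissue were bulk samples, in which fewer cells of a type and less RNA per cell cannot be told apart.

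Levels are given as normalized log2 intensity, and 1 unit is a doubling. On the linear scanner scale, the spots for genes had array medians from 27 to 89, and negative controls had medians from 17 to 25. The 16 arrays of 2-year tissue lay on 2 slides of their own, so that age and slide cannot be told apart for them. Marker lists of cerebellum, cortex, liver, kidney tubule, spleen lymphocytes, marrow blood cells, testis and ovary were each highest in the tissue of that name, but the 5 hypothalamic neuropeptide genes on the array did not set the hypothalamus apart. In that list OXT lay between 10.64 and 11.90 and AVP between 1.47 and 2.33 in all 9 tissues, so the label of the hypothalamus was not checked by them.

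Of the 61 members, 19 were well above background in all 72 samples and 41 in some of them. SLC38A11 was the only member that was well above background in none, and no member was saturated on any array. Kidney was the tissue of the highest mean for 15 members (24.6%, against 8.99% of all genes), bone marrow for 14 (23.0% against 15.1%) and liver for 10 (16.4% against 14.6%). No minimum lead was asked for, and in marrow the lead over the next tissue ran from 0.01 log2 units (SLC7A4) to 1.84 (SLC16A5). SLC38A11 was counted in marrow too, with a lead of 0.07. Testis held the highest mean of 1 member only (1.64%), although 14.9% of all genes were highest there. The means of a member over the 9 tissues spanned a median of 2.15 log2 units, compared to 1.61 for all genes, and 19 members spanned at least 4 units (31.1%, against 14.4% of all genes). These shares describe the members and were not tested.

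**Figure D1:**
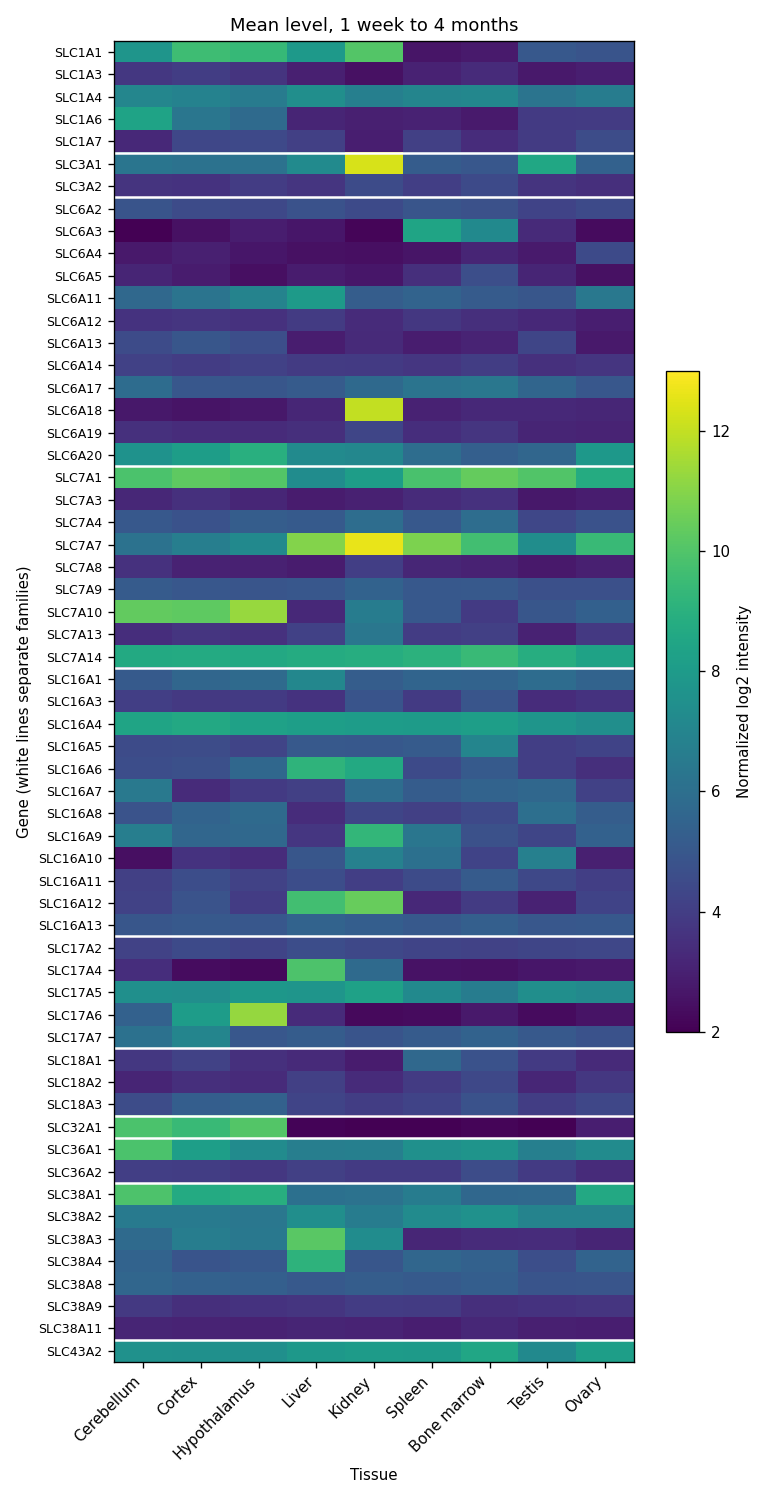
Mean normalized log2 intensity (color) of 59 members (rows, white lines between families) in 9 tissues (columns), over the samples from 1 week to 4 months. Some rows are bright mainly in 1 organ or in the 3 brain regions, as for SLC6A18 in kidney (12.00), SLC17A4 in liver (9.92) and SLC32A1 in brain (9.46 to 10.07). Others are bright in several organs, as for SLC7A7 in kidney, liver and spleen, or similar in all 9 tissues, as for SLC43A2 (means within 1.31 log2 units).

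A member was called in a tissue if it differed from the mean of the other 6 tissues at an adjusted p under 0.05 and by at least 2-fold, in limma with Benjamini-Hochberg adjustment over all genes and with age and sex as covariates. By this rule 33 members were called in at least 1 of the 7 tissues. Among the 28 that were called in none were SLC1A4 (neutral amino acids), SLC38A2 (neutral amino acids) and SLC43A2 (large neutral amino acids), which were 3 of 10 such members well above background in all 72 samples. Another 11 of the 28 were well above background in under 36 samples. The difference is given as a lower bound, "at least N-fold", where a tissue or age group on the lower side had no sample well above background. In such groups dim values were raised to the lowest signal measured well above background on the same array. A group with at least 1 sample well above background kept its own values, so a difference without a bound can include dim values.

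In the 3 brain regions, transporters of glutamate and GABA had the largest differences. In cerebellum 8 members were called higher and 6 lower, beside 9.75% and 10.1% of all genes. In cortex 12 were higher and 9 lower (10.6% and 9.41% of all genes), and in hypothalamus 11 were higher and 7 lower (9.82% and 7.86%). The called members thus made up 23.0%, 34.4% and 29.5% of the 61, and the genes called in either direction 19.8%, 20.0% and 17.7% of all. The median difference over the members was -0.03, -0.10 and -0.21 log2 units in these regions, beside -0.06, -0.11 and -0.11 over all genes.

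SLC17A6 (VGLUT2), a vesicular glutamate transporter of subcortical neurons, separated the regions most. Its level was between 10.29 and 11.89 with a median of 11.22 in the 8 hypothalamus samples, between 7.27 and 8.97 with a median of 8.12 in cortex and between 4.85 and 6.39 with a median of 5.17 in cerebellum. No sample of one region overlapped with another region, and the means elsewhere were at most 3.34. Hypothalamus exceeded cortex by 3.18 ± 0.23 log2 units (SE, n = 8 each, limma adjusted p = 1.86e-16) and cerebellum by 5.86 ± 0.23 (adjusted p = 1.76e-27). Against the other 6 tissues, with a mean of 4.04, hypothalamus at 11.26 was at least 120-fold higher (adjusted p = 1.85e-37).

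Among the brain regions, SLC17A7 (VGLUT1), the vesicular glutamate transporter typical of cortical and cerebellar granule neurons, was highest in cortex and lowest in hypothalamus. It lay between 6.53 and 7.54 with a median of 6.96 in cortex, between 5.88 and 6.34 with a median of 6.10 in cerebellum and between 4.60 and 5.90 with a median of 4.82 in hypothalamus. Cortex did not overlap with hypothalamus, whereas the highest hypothalamus sample lay within the range of cerebellum. Cortex exceeded hypothalamus by 2.03 ± 0.18 log2 units (limma adjusted p = 4.31e-13), and cerebellum exceeded it by 1.12 ± 0.18 (adjusted p = 9.07e-07). SLC17A7 was not confined to brain, as it was well above background in all 72 samples. Its means in the 9 tissues spanned 2.24 log2 units, more than the 2.03 between cortex and hypothalamus. Hypothalamus was therefore not the lowest tissue. Bone marrow without the 2-year sample had a median of 5.40 (4.87 to 6.09), beside 4.82 in hypothalamus. The 2 probes of SLC17A7 did not run together across samples (Pearson's r = 0.38), so its size of change depends on the average over probes, and with an offset of 50 in the background correction the difference between cortex and hypothalamus was no longer called.

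The GABA system was shared by all 3 regions. SLC32A1 (VGAT), which fills vesicles with GABA and glycine, had medians of 9.90 in cerebellum (9.48 to 10.20), 9.53 in cortex (9.23 to 9.67) and 10.08 in hypothalamus (9.26 to 11.03). Its means outside the brain were at most 2.94, and each region was compared with the mean of the other 6 tissues, and was at least 23.6-fold, 16.9-fold and 27.8-fold higher. No pair of brain regions was called for SLC32A1.

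The enzymes that make GABA, listed among 18 partner genes on the array, followed SLC32A1 in tissue. GAD1 had means of 7.02, 7.42 and 7.16 and GAD2 of 8.48, 8.62 and 9.26 in cerebellum, cortex and hypothalamus, and both were called higher in each region.

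**Figure D2:**
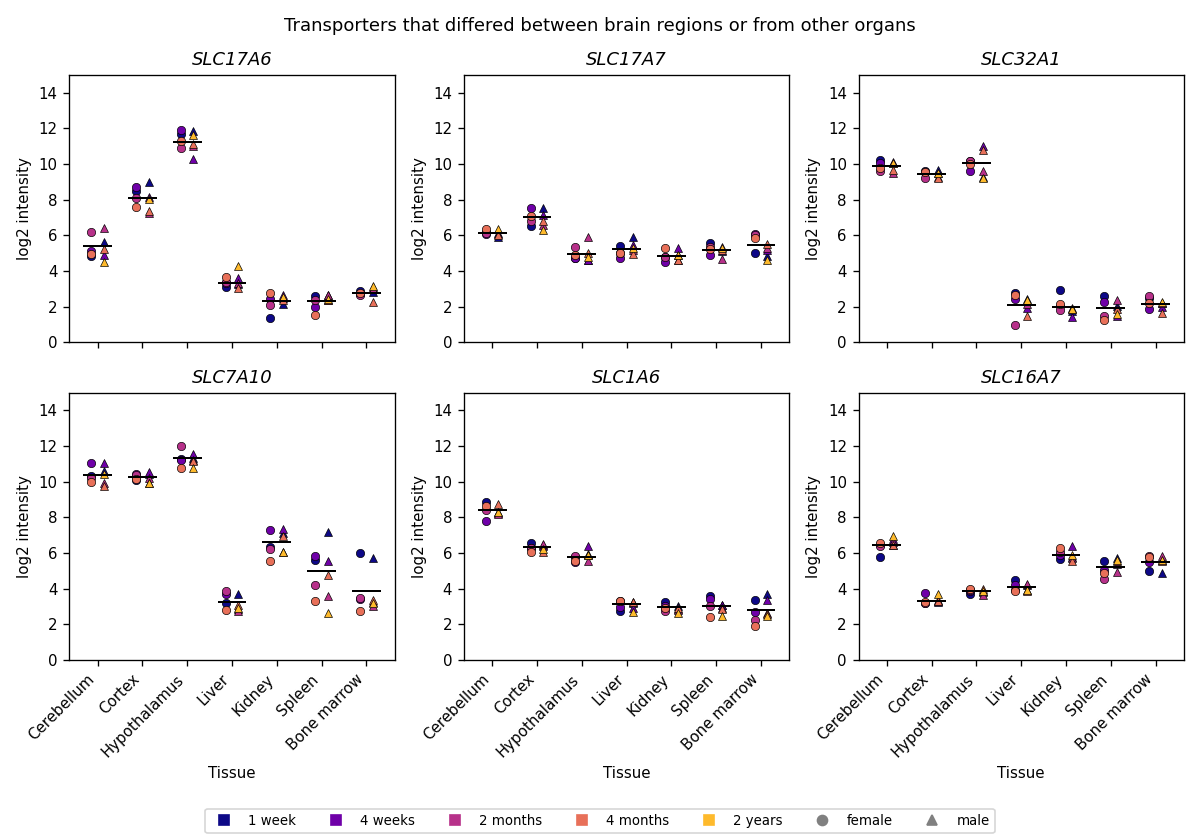
Normalized log2 intensity (vertical axis) of 6 members in 7 tissues (horizontal axis), with 1 point per sample, color for age, circles for females and triangles for males, and a line at the mean of the samples up to 4 months. SLC17A6 steps down from hypothalamus (mean 11.26) to cortex (8.08) and cerebellum (5.40), SLC32A1 and SLC7A10 are high in all 3 regions, and SLC1A6 and SLC16A7 are highest in cerebellum (8.40 and 6.44).

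Cerebellum was set apart by SLC1A6 (EAAT4), the glutamate transporter of Purkinje cells. Its samples lay between 7.79 and 8.86 with a median of 8.35, above all samples of cortex (6.05 to 6.56) and hypothalamus (5.49 to 6.42). Cerebellum was 2.07 ± 0.16 log2 units above cortex and 2.60 ± 0.16 above hypothalamus (limma adjusted p of 7.17e-16 and 2.37e-19). Against the other 6 tissues, with a mean of 4.01, it was at least 18.5-fold higher. Both probes of SLC1A6 carry a mark "Xhyb" in the array design, whose meaning is not given in the sources used here.

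SLC36A1, a proton-coupled amino acid transporter of lysosomes and the plasma membrane, lay between 9.46 and 10.13 with a median of 9.88 in cerebellum. No sample of the other 6 tissues reached that range, and the difference was 2.52 ± 0.11 log2 units (limma adjusted p = 6.71e-27). SLC38A1 (SNAT1), which supplies neurons with glutamine, had a median of 9.86 in cerebellum (9.57 to 10.41), 8.76 in cortex and 8.76 in hypothalamus. It was higher in all 3 regions, by 2.92 ± 0.21, 1.50 ± 0.21 and 1.70 ± 0.21 log2 units.

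SLC16A7 (MCT2), the high-affinity lactate and pyruvate transporter, lay between 5.79 and 6.78 with a median of 6.45 in cerebellum. It was not well above background in any cortex sample (mean 3.33) or hypothalamus sample (mean 3.85), and cerebellum was at least 8.55-fold and 5.99-fold higher than these (limma adjusted p of 3.01e-24 and 9.02e-21). In kidney SLC16A7 had a mean of 5.91 and was at least 2.26-fold higher than in the other 6 tissues.

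Cortex and hypothalamus shared a higher level than cerebellum of SLC1A1 (EAAT3), the neuronal and epithelial transporter of glutamate and cysteine. Over the 9 tissues SLC1A1 had its highest mean in kidney, 0.48 log2 units above the next tissue. Its median was 9.58 in cortex (9.14 to 10.20) and 9.33 in hypothalamus (8.86 to 9.94), above all cerebellum samples (7.31 to 8.18). Cerebellum was 1.84 ± 0.30 log2 units below cortex and 1.63 ± 0.30 below hypothalamus (limma adjusted p of 1.13e-06 and 1.1e-05).

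SLC7A10 (Asc-1), which exchanges D-serine and small neutral amino acids, had medians of 10.26, 10.27 and 11.23 in cerebellum, cortex and hypothalamus. It was at least 12.1-fold, 11.2-fold and 25.9-fold above the other 6 tissues, and hypothalamus exceeded cortex by 1.04 ± 0.32 log2 units (limma adjusted p = 0.013). This last call was kept in 4 of 8 alternatives and was lost with the processed signal, median scaling, the authors' table and slide as a covariate (adjusted p up to 0.131). SLC6A20, a proline and glycine transporter measured by 1 probe, had its highest median in hypothalamus (9.02, from 8.30 to 9.73) and was 2.07 ± 0.15 log2 units above the other 6 tissues. A transcript that RefSeq assigns to SLC6A20, XM_003358406, was dim, with means of 4.36 in hypothalamus, 4.03 in kidney, 3.91 in cortex and 3.52 in cerebellum. It was well above background in 6 of 8 hypothalamus samples and in no cortex or cerebellum sample, so the size of the difference rests on the 1 probe.

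Several transporters that define transmitter systems were called in no tissue, among them SLC6A2 (noradrenaline), SLC6A4 (serotonin) and the vesicular transporters SLC18A2 (monoamines) and SLC18A3 (acetylcholine). SLC6A2 was low but well above background in 68 of 72 samples, with means between 4.20 and 4.89 in the 9 tissues. Of its 4 probes 2 are marked Xhyb, and the lowest correlation between its probes was r = 0.04. SLC18A3 was well above background in 41 samples and had its highest means in hypothalamus (5.42) and cortex (5.27). SLC6A4 was well above background in 3 samples, none of them from brain, and SLC18A2 in 6, none of them from brain either. SLC6A5, the neuronal glycine transporter, had means of 3.12, 2.85 and 2.46 in the 3 brain regions.

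The symbol SLC1A3 (EAAT1), the main glutamate transporter of cerebellar astrocytes, gave a level of 3.67 to 3.98 in brain and no call, and 4 of its 6 probes carry the mark Xhyb. A transcript that RefSeq assigns to SLC1A3, NM_001244425, stands on the array without a symbol and so outside the 61. Its means were 9.69 in cerebellum, 9.57 in cortex and 8.70 in hypothalamus, beside 2.65 in kidney, 2.68 in liver and 2.87 in spleen. In bone marrow its mean was 4.91, and 7 of 8 samples were well above background. It was at least 18.8-fold, 17.1-fold and 8.49-fold higher in the 3 regions than in the respective other 6 tissues. The symbol and the transcript therefore gave different tissue patterns for the same gene name. Of 10822 transcript names of this style on the array, 3022 were matched to the RefSeq table and 11 of these belonged to the families examined.

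SLC6A11 (GAT3), a GABA transporter of astrocytes, was highest in liver and not in brain. Its level was between 6.76 and 8.54 with a median of 8.26 in liver, with means of 6.91 in hypothalamus, 6.21 in cortex and 5.71 in cerebellum. Liver exceeded the other 6 tissues by 2.22 ± 0.15 log2 units (limma adjusted p = 1.82e-18). Both of its probes are marked Xhyb, and on 16 arrays of spleen and bone marrow 1 of them was flagged, so that those values rest on the other probe alone.

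In kidney 13 members were called higher and 9 lower, beside 8.89% and 8.95% of all genes (36.1% of the members in either direction, against 17.8%), with a median difference of -0.13 log2 units over the members and -0.07 over all genes. SLC6A18 (XT2), a glycine and neutral amino acid transporter of the proximal tubule brush border, lay between 10.80 and 12.93 with a median of 11.93 in the 8 kidney samples. No sample of the other 6 tissues reached that range, and their mean was 2.92. Kidney was at least 473-fold higher (limma adjusted p = 6.3e-47).

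SLC3A1 (rBAT), the heavy chain of the cystine transporter, lay between 11.51 and 13.01 with a median of 12.22 in kidney, above all samples of the other 6 tissues. The difference was 6.34 ± 0.15 log2 units (limma adjusted p = 2.04e-38), and both probes of SLC3A1 are marked Xhyb. A separate transcript of SLC3A1, NM_001123042, had a mean of 10.89 in kidney and was called higher there too, by 5.65 log2 units. SLC7A9, the light chain of the same cystine transporter, had a mean of 5.45 in kidney and between 4.68 and 5.16 elsewhere and was called in no tissue. Its 2 probes correlated at only r = 0.38, so its pattern depends on the average over probes.

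SLC7A7 (y+LAT1), which exports cationic amino acids from epithelial cells, had a median of 12.39 in kidney (12.08 to 13.86), 10.98 in liver (10.64 to 11.28) and 10.92 in spleen (9.49 to 11.80). Its means in the brain regions were between 6.16 and 7.24. Kidney was 4.06 ± 0.16 log2 units above the other 6 tissues with no overlap, liver 2.08 ± 0.16 and spleen 1.92 ± 0.16. SLC3A2, the heavy chain that SLC7A7 and its relatives bind, was well above background in 15 of 72 samples and was called in no tissue.

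SLC16A12, a creatine transporter, was high in both kidney, with a median of 10.56 (9.84 to 10.74), and liver, with a median of 9.70 (9.16 to 10.05). The differences from the other 6 tissues were 5.47 ± 0.21 and 4.56 ± 0.21 log2 units. SLC16A6 (MCT7), which exports ketone bodies from hepatocytes, had a median of 8.56 in kidney and 9.10 in liver and was higher by 3.05 ± 0.21 and 3.60 ± 0.21 log2 units. Kidney and liver were not called different for either gene.

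SLC16A9, a carnitine and creatine transporter, lay between 8.08 and 10.03 with a median of 9.50 in kidney, without overlap with other tissues, and was 3.83 ± 0.22 log2 units higher there. SLC16A10 (TAT1), the exporter of aromatic amino acids, had a mean of 6.83 in kidney and was at least 6.11-fold higher than in the other 6 tissues. Over all 9 tissues its kidney mean led the next tissue by only 0.04 log2 units. SLC7A13, a light chain of the proximal tubule, had a mean of 6.36 and was 2.56 ± 0.09 log2 units higher, though its 2 probes correlated at only r = 0.46. The neutral amino acid transporters SLC6A19 and SLC7A8 had means of 4.31 and 4.06 in kidney, where all of the samples well above background (3 of 72 for each) were found, and neither was called.

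**Figure D3:**
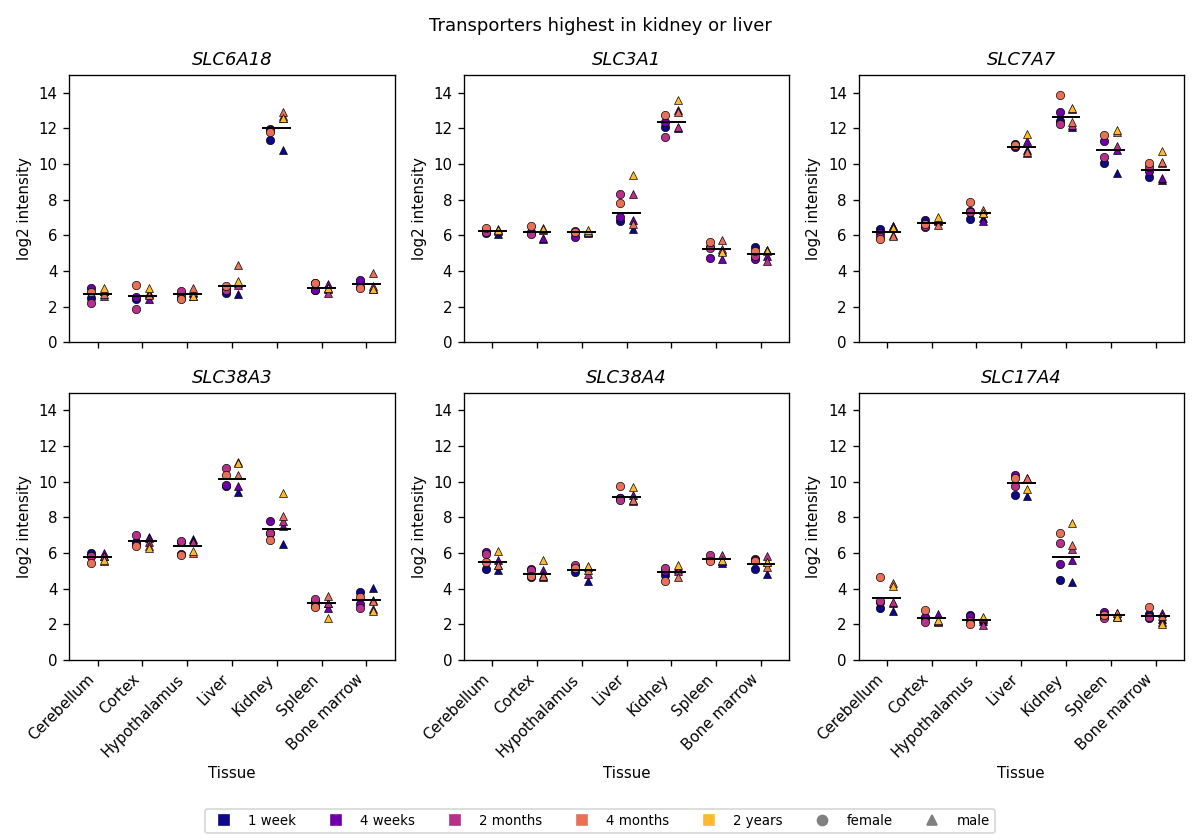
Normalized log2 intensity (vertical axis) of 6 members in 7 tissues (horizontal axis), with 1 point per sample, color for age, circles for females and triangles for males, and a line at the mean of the samples up to 4 months. SLC6A18, SLC3A1 and SLC7A7 are highest in kidney (means 12.00, 12.34 and 12.64), and SLC38A3, SLC38A4 and SLC17A4 in liver (10.17, 9.13 and 9.92).

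In liver 22 members were called in either direction (36.1%, against 21.4% of all genes), with a median difference of -0.11 over the members and -0.05 over all genes. SLC17A4, a transporter of organic anions and urate, lay between 9.21 and 10.40 with a median of 10.16 in liver. Its mean was 5.79 in kidney and at most 3.46 in the other tissues, and liver did not overlap with any of them. Liver was at least 83.4-fold above the other 6 tissues (limma adjusted p = 1.75e-38).

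SLC38A3 (SNAT3), the glutamine transporter of periportal hepatocytes, lay between 9.40 and 11.10 with a median of 10.09 in liver. No sample of the other 6 tissues up to 4 months reached that range, and liver was at least 26.0-fold higher (limma adjusted p = 4.99e-33). SLC38A4 (SNAT4), which supplies hepatocytes with neutral amino acids, lay between 8.92 and 9.77 with a median of 9.03. It too did not overlap with other tissues, and the difference was 3.91 ± 0.09 log2 units.

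SLC16A1 (MCT1), the widespread lactate transporter, had a median of 7.20 in liver (6.59 to 7.42) and was 1.63 ± 0.17 log2 units higher there. A transcript assigned to SLC7A2, NM_001110420, a cationic amino acid transporter of hepatocytes, had a mean of 10.32 in liver and was called higher, by 3.99 log2 units. SLC7A1 (CAT1), the cationic amino acid transporter of most other cells, had a median of 7.37 in liver (6.79 to 7.99) and was lower by 2.40 ± 0.09 log2 units. Both probes of SLC7A1 are marked Xhyb.

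Between liver and kidney, 7 members were called higher in liver (8.01% of all genes) and 12 higher in kidney (9.34% of all genes). The differences toward kidney included 8.82 ± 0.18 log2 units for SLC6A18 and 5.56 ± 0.28 for SLC16A9. The largest toward liver were 4.20 ± 0.12 for SLC38A4, 4.13 ± 0.21 for SLC17A4 and 2.83 ± 0.19 for SLC38A3. The samples of liver and kidney did not overlap for any of these 5 genes. Between brain regions, cerebellum was called higher than cortex for 6 members and lower for 4, beside 4.44% and 5.47% of all genes. It was higher than hypothalamus for 6 and lower for 7 (4.25% and 5.77% of all genes), and cortex was higher than hypothalamus for 1 and lower for 3 (2.46% and 2.16%).

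In spleen 4 members were called higher and 15 lower, beside 8.81% and 10.1% of all genes, and in bone marrow 4 higher and 18 lower (10.4% and 12.1% of all genes). The called members made up 31.1% and 36.1% of the 61, against 18.9% and 22.5% of all genes called in either direction. The median difference over the members was -0.19 in spleen and -0.08 in marrow, beside 0.01 over all genes in both. SLC6A3, the plasma membrane dopamine transporter, was the member furthest above the other tissues in either organ. It lay between 7.76 and 9.17 with a median of 8.46 in spleen and between 5.89 and 8.34 with a median of 7.43 in bone marrow.

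In the brain SLC6A3 had means of 1.95 in cerebellum, 2.50 in cortex and 2.89 in hypothalamus, and none of those samples was well above background. Spleen was at least 23.5-fold and marrow at least 9.07-fold above the respective other 6 tissues (limma adjusted p of 1.01e-26 and 2.15e-21). Both probes of SLC6A3 gave this pattern (r = 0.98). No reference sequence of the probes was used here, so which transcript they detect was not checked.

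SLC18A1 (VMAT1), the vesicular monoamine transporter of endocrine cells, had a median of 5.83 in spleen (5.16 to 6.17), where it was at least 3.70-fold higher, and of 4.74 in marrow. The call in spleen was lost with an offset of 50. SLC16A10 had a mean of 6.07 in spleen and was at least 3.33-fold higher. HDC, the enzyme that makes histamine, had a mean of 7.90 in marrow and was the only partner gene called higher in spleen or marrow.

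In bone marrow SLC16A5, a monocarboxylate carrier, had a median of 6.72 (6.49 to 7.60) and was 2.23 ± 0.19 log2 units above the other 6 tissues (limma adjusted p = 8.79e-15). SLC6A5 had a mean of 4.65 and was at least 2.81-fold higher, with 5 of 8 marrow samples well above background, and its call was lost with an offset of 50. SLC7A1 had a median of 10.31 (9.99 to 11.00) and was 1.13 ± 0.09 log2 units higher. The transcript XM_003355984, assigned to the glutamine transporter SLC1A5, had means of 12.15 in marrow, 11.74 in kidney and 11.22 in spleen and was called higher in all 3.

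SLC1A1 was not well above background in any spleen sample (mean 2.60), and spleen was at least 30.8-fold below the other 6 tissues. In marrow, where 1 of 8 samples was well above background, its mean was 2.81, and it was called lower there too. SLC38A3, SLC7A10 and SLC32A1 were also called lower in both organs.

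**Figure D4:**
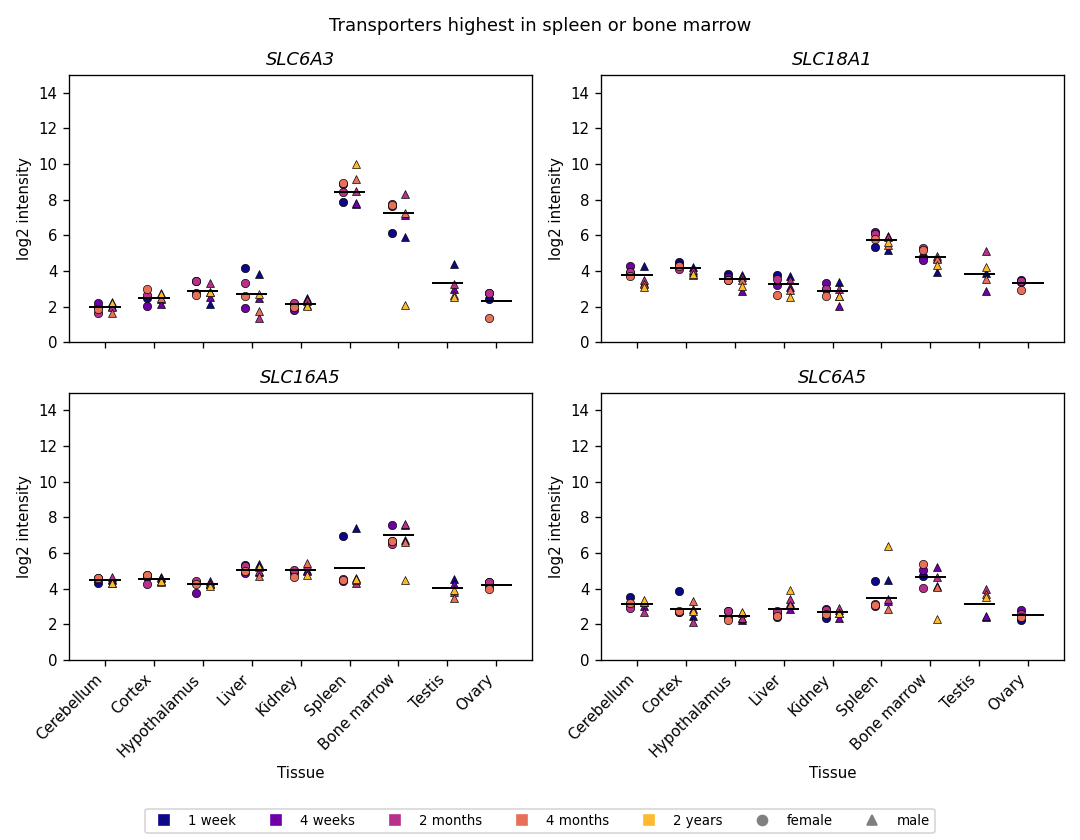
Normalized log2 intensity (vertical axis) of 4 members in 9 tissues (horizontal axis), with 1 point per sample, color for age, circles for females and triangles for males, and a line at the mean of the samples up to 4 months. SLC6A3 is high in spleen (mean 8.41) and bone marrow (7.23) except in the 2-year marrow sample (2.10), and SLC16A5 is high in marrow (6.99) and in the 1-week spleen samples (6.96 and 7.41).

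The 2-year bone marrow, which entered no test, stood apart from the younger marrow samples. SLC6A3 was 2.10 there, SLC16A5 was 4.51, SLC6A5 was 2.29 and SLC7A1 was 8.67, each at least 1 log2 unit below the lowest of the 8 younger samples. Of the 61 members, 4 lay that far below and 1 lay as far above the highest younger sample. Of all 23722 genes, 1235 lay that far below and 1474 that far above. In the same sample the erythroid gene HBA1 was 5.36 (14.85 to 15.90 in younger marrow), the myeloid gene S100A8 was 8.26 (14.41 to 15.87) and the adipocyte gene PLIN1 was 11.05 (4.55 to 7.72). The part of these cell types in the levels of the members was not tested.

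The 1-week spleens also differed from later spleens. SLC16A5 was 6.96 in the female and 7.41 in the male at 1 week and lay between 4.32 and 4.62 in the later samples. SLC16A12 was 5.01 and 5.15 at 1 week and lay between 2.33 and 3.20 later. The mean of 5 erythroid genes was 11.0 at 1 week and 9.29, 8.49 and 8.74 at the following ages up to 4 months, and the mean of 4 myeloid genes was 8.35, 6.81, 6.18 and 5.63. Neither SLC16A5 nor SLC16A12 was called with age in spleen, where both younger ages were pooled, and the part of these blood cells was not tested.

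The samples at 2 and 4 months were compared with those at 1 and 4 weeks within each tissue, 4 against 4, at an adjusted p under 0.05 in limma. In kidney 3 members rose and 2 fell, beside 3.72% and 4.74% of all genes, so that 8.20% of the members and 8.46% of all genes were called. In cerebellum 2 members fell (1.34% of all genes), in cortex 1 fell (0.809%), in liver 1 rose (0.683%) and in spleen 1 fell (1.56%). No member was called in hypothalamus (0% of all genes), where 11 had an unadjusted p under 0.05, or in bone marrow (0.733%), where 8 did. In kidney the share of members called was thus close to that of all genes, and in the other tissues 1 or 2 genes carried the count.

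SLC38A1 in kidney was 7.09 in the 1-week female and 7.20 in the 1-week male, 6.75 and 6.50 in the 4-week pair, 5.15 and 5.37 in the 2-month pair and 5.87 and 5.39 in the 4-month pair. All older samples lay below all younger ones, and the 2-year male was at 5.59. SLC38A1 fell by 1.44 ± 0.20 log2 units (limma adjusted p = 0.00635), and it was called in all 10 other settings and without any 1 of the 8 samples. In liver SLC38A1 ran from 7.27 and 6.89 at 1 week to 6.28 and 4.47 at 4 months, which did not pass the threshold (difference -1.58, adjusted p = 0.061).

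In kidney SLC17A4 stood at 4.49 and 4.40 in the 1-week female and male, at 5.39 and 5.63 in the 4-week pair, at 6.58 and 6.24 in the 2-month pair, at 7.10 and 6.45 in the 4-month pair and at 7.68 in the 2-year male. The older samples did not overlap with the younger ones, and SLC17A4 rose by 1.62 ± 0.30 log2 units (limma adjusted p = 0.0163). Without the 1-week female its adjusted p was 0.0547. The transcript NM_214344, assigned to the phosphate and urate transporter SLC17A1, was 6.65 and 6.28 at 1 week and 9.75 and 9.28 at 4 months in kidney and rose by 2.05 log2 units (adjusted p = 0.0183).

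SLC16A6 in kidney (female, then male) was 9.81 and 9.30 in the youngest pair, 9.24 and 8.66 in the 4-week pair, 8.17 and 7.50 in the 2-month pair and 8.47 and 8.20 in the 4-month pair. The groups did not overlap, and SLC16A6 fell by 1.17 ± 0.26 log2 units (limma adjusted p = 0.0291). The call was lost without the 1-week female, the 1-week male, the 4-week female, either 2-month sample or the 4-month male (adjusted p up to 0.0833). SLC16A4, a monocarboxylate carrier whose 4 probes are all marked Xhyb, rose by 0.81 ± 0.20 log2 units with overlapping groups (adjusted p = 0.0369). SLC6A12 (BGT1), a betaine and GABA transporter of the renal medulla, was not well above background in the younger kidneys and was at least 1.21-fold higher in the older ones (adjusted p = 0.0357). The calls of SLC16A4 and SLC6A12 were kept in 2 and 1 of the 8 fits without 1 sample, and the 2 probes of SLC6A12 correlated at only r = 0.13.

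Marker genes moved with age in the same kidneys. The T cell gene CD3E rose by 2.47 log2 units and the collecting duct gene AQP2 by 1.15, while FABP4, an adipocyte and endothelial gene, fell by 1.87. None of the 3 proximal tubule markers on the array was called. The part of these cell types in the changes of the members was not tested.

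SLC38A3 in liver was 9.77 and 9.40 in the 1-week female and male, 9.82 and 9.74 in the 4-week pair, 10.77 and 11.10 in the 2-month pair and 10.39 and 10.35 in the 4-month pair. Older livers all lay above younger ones, and SLC38A3 rose by 0.97 ± 0.19 log2 units (limma adjusted p = 0.0413). The call was lost when any 1 of the 8 samples was left out (adjusted p from 0.0571 to 0.132). It was also lost with the offset of 50, with the authors' table and with sex as a replicate block, under which 1 other member was called, in the opposite direction. In the same livers the neutrophil gene S100A8 was at least 34.2-fold lower in the older samples and CD3E rose by 1.38 log2 units, and their part was not tested.

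SLC7A10 in spleen was 5.60 and 7.19 in the 1-week female and male, 5.84 and 5.53 in the 4-week pair, 4.20 and 3.60 in the 2-month pair and 3.33 and 4.78 in the 4-month pair. The groups did not overlap, and SLC7A10 fell by 2.06 ± 0.43 log2 units (limma adjusted p = 0.041). The call was kept without either of the 4-week samples and lost without any other 1 of the 8 (adjusted p up to 0.136). With an offset of 50, with the authors' table and with sex as a replicate block it was lost as well. Beside it, S100A8 fell by 3.77 and HBA1 by 2.40 log2 units in spleen, HDC was at least 9.98-fold lower, and their part was not tested.

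In the brain the changes with age were smaller. SLC1A1 in cortex (female, then male) was 10.20 and 9.96 in the 1-week pair, 9.77 and 9.75 in the 4-week pair, 9.25 and 9.30 in the 2-month pair and 9.42 and 9.14 in the 4-month pair, and it fell by 0.64 ± 0.12 log2 units (limma adjusted p = 0.0383). SLC32A1 in cerebellum lay between 10.04 and 10.20 in the younger and between 9.48 and 9.75 in the older samples and fell by 0.48 ± 0.11 log2 units (limma adjusted p = 0.0496). Younger and older samples overlapped for neither gene. The calls were kept in 1 and 0 of the 8 fits without 1 sample, respectively. In the same cortices the myeloid gene MPO rose by 1.21 log2 units, the T cell gene CD3E by 0.96 and the pituitary gene CGA by 1.40. In the same cerebella the astrocyte gene AQP4 fell by 1.02 and the granule cell gene CBLN3 rose by 0.82. The part of these cell types was not tested.

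**Figure D5:**
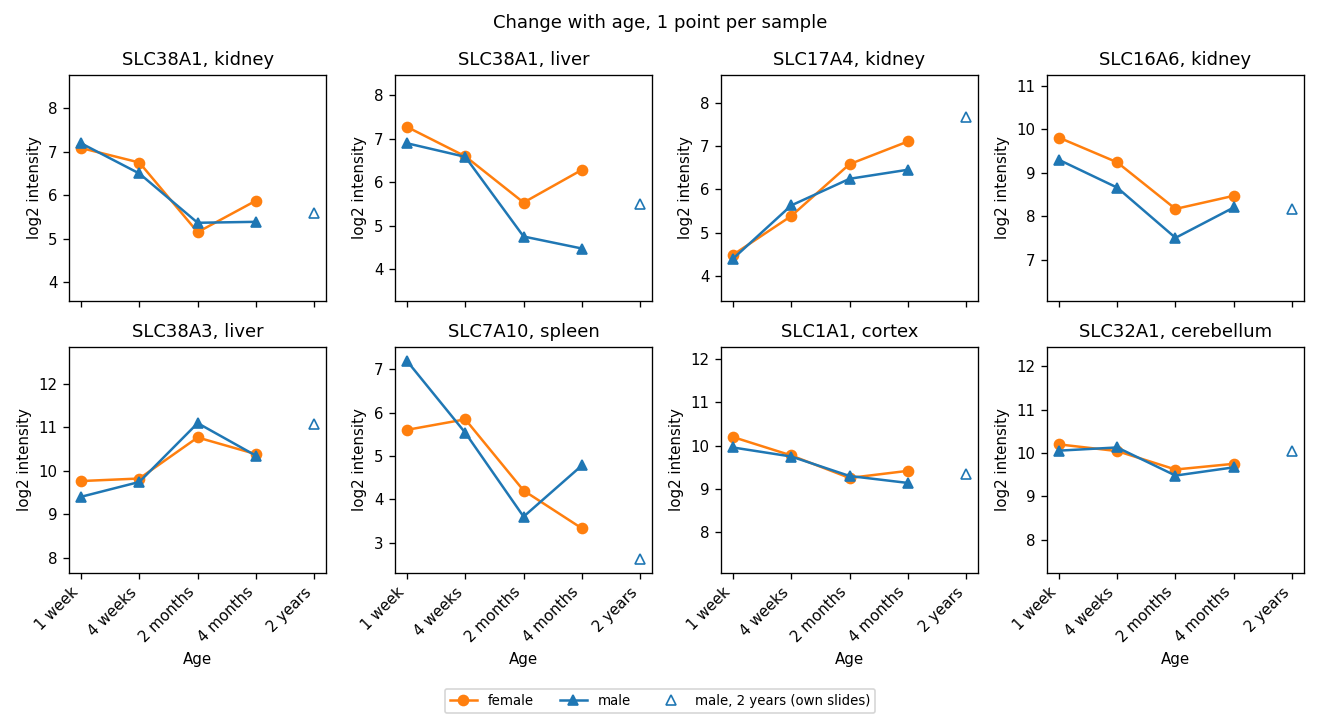
Normalized log2 intensity (vertical axis) of 7 members against age (horizontal axis, ages evenly spaced), with orange circles for females, blue triangles for males and an open triangle for the 2-year male, whose arrays lay on their own slides. SLC38A1 falls from 7.09 and 7.20 to 5.87 and 5.39 in kidney, and SLC17A4 climbs from 4.49 and 4.40 to 7.10 and 6.45.

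A change with age that differed between the 7 tissues was called for 10 members by the interaction of tissue and age in limma (16.4%, against 18.6% of all genes). SLC38A1 had the smallest adjusted p (0.000425), with a difference of -1.44 log2 units in kidney, -1.58 in liver, 0.49 in spleen and 0.36 in hypothalamus. SLC1A1 (adjusted p = 0.00147) had a difference of 1.38 in liver, -0.96 in kidney and -0.64 in cortex.

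Between the sexes no member was called over the 28 pairs of the same tissue and age (0.253% of all genes called in limma), and 6 had an unadjusted p under 0.05. The smallest p was that of SLC18A1 (adjusted p = 0.214), with a mean difference of -0.24 log2 units as male minus female.

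Testis and ovary had 1 sample per age and were described without a test, at a limit of 4-fold between successive ages. In testis 4 members passed it between 4 weeks and 2 months (8.58% of all genes), and the mean of the germ cell markers was 4.05 in the samples up to 4 weeks and 12.7 at 2 and 4 months. SLC16A7 went from 4.34 to 7.51, and SLC6A13 (GAT2), a GABA and taurine transporter, from 2.98 to 5.79, at least 7.02-fold. SLC18A1 went from 2.89 to 5.12, at least 4.67-fold, and SLC38A1 from 7.06 to 5.01. SLC1A7 (EAAT5), a glutamate transporter of the retina, was the only member past the limit between 2 and 4 months (0.333% of all genes), from 4.34 to 2.29, at least 3.20-fold lower. No member passed it in the other testis intervals (1.58% and 0.510% of all genes). For SLC3A1, testis was second in level to kidney, with 6.85 in the 1-week male, 8.47 in the 4-week male, 9.42 and 9.48 in the 2-month and 4-month males and 8.81 in the oldest.

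In ovary 1 member passed the limit between 1 and 4 weeks (0.434% of all genes), 3 between 4 weeks and 2 months (1.14%) and 2 between 2 and 4 months (2.55%). SLC6A4, the serotonin transporter, was 5.42 at 1 week and 3.38 at 4 weeks, at least 4.12-fold lower. SLC6A11 went from 5.21 to 7.21 and SLC7A10 from 7.18 to 4.81 between 4 weeks and 2 months. SLC16A12 was 5.15 at 4 weeks, 2.81 at 2 months and 5.01 at 4 months, at least 4.80-fold lower and then at least 4.36-fold higher, and SLC1A7 went from 5.48 to 3.18 between 2 and 4 months, at least 4.92-fold lower. With a single sample per age, differences between animals and changes with age cannot be told apart.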

How the data were processed

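For each array the authors deposited the scanner output of Agilent Feature Extraction 11.5.1.1 (version per the labels), in which the raw median spot intensity is not normalized between arrays. A table of log2 values normalized by the authors was also deposited and served as an alternative, and no p-value or fold column of the authors was used. The authors' methods name background correction, quantile normalization, gene averages and log2 transformation but no test. Background was therefore corrected in limma 3.58.1 (R 4.3.3) with normexp and an offset of 0 after flagged spots were left out (10 to 590 per array). Quantile normalization followed, and log2 values were averaged first over spots and then over the probes of each gene (Python 3.11.15, numpy 2.4.6, pandas 2.3.3, plots with matplotlib 3.10.9). This gave 23722 genes, of which 10905 are named by a transcript identifier, and 14 genes without an unflagged value on every array were dropped.

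Negative control spots set a detection limit on each array at their 95th percentile (2.29 to 3.39 log2 units), which 72.5% to 93.7% of genes exceeded. A member was well above background where the scanner software marked at least 1 of its probes so. In bounds, the dim side took on each array the higher of its own value and the lowest value among genes well above background. Across the technical repeats the SD of a gene had a median of 0.115 log2 units, and the number of arrays limits the precision. The renal pelvis array of the 2-year male was left out of all tests.

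Of the members, 56 had 2 distinct probes, 1 had 1 and 4 had more. Among the 60 members with several probes the lowest correlation between probes was at least 0.9 for 28 and under 0.5 for 17. Of 131 probes, 18 in 7 members carry the mark Xhyb (SLC1A3, SLC1A6, SLC3A1, SLC6A2, SLC6A11, SLC7A1 and SLC16A4). Transcript identifiers were matched to a RefSeq gene table for names only.

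Tissues were compared in 1 limma fit over 56 samples with age and sex as covariates. Ages were compared in a fit for each tissue, the interaction in a fit of tissue and age stage, and the sexes over 28 pairs, each with Benjamini-Hochberg adjustment over all genes at 0.05. Simulated data with known changes were used to test each limma step. Named genes were the transporters of transmitters, epithelia, hepatocytes and growing cells listed by function, the 3 called members with the largest difference per direction and tissue or pair, the 5 per direction and age comparison, the members past 4-fold in testis and ovary, and those behind a count of 5 or fewer. SLC38A11 and the members of families that fall outside this rule were named after their values were seen. Some members and marker genes are not reported here, though the counts include them. The members, lists and tests were chosen with earlier results of these data known.

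Alternatives were the processed signal scaled to its 75th percentile, an offset of 50, median scaling, the median of probes, a filter that kept genes above the detection limit in at least 4 samples, a replicate block, slide as a covariate, no fold limit, other sets of samples and leaving out samples, ages or tissues in turn. The authors' table and all alternatives of the interaction were added after seeing the data.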

Additional observations from a re-analysis of the deposited data

Results flagged for a closer look

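The change from the first 4 weeks to 2 and 4 months differed between the 7 tissues for 10 members by the interaction of tissue and age stage in limma, with adjusted p of 0.000425 for SLC38A1, 0.00107 for SLC17A4, 0.00147 for SLC1A1, 0.00771 for SLC1A6, 0.00862 for SLC16A12, 0.0191 for SLC16A6, 0.0205 for SLC7A4, 0.0409 for SLC7A10, 0.0415 for SLC7A8 and 0.0463 for SLC16A13. SLC17A4 had a difference of 1.62 log2 units in kidney and 0.33 in liver. SLC16A6 had -1.17 in kidney, -0.79 in cerebellum and 0.69 in spleen. SLC16A12 was at least 2.09-fold lower in older spleens, which were not well above background, and had 0.25 in kidney. SLC7A10 had -2.06 in spleen and -0.04 in hypothalamus, and was at least 2.32-fold lower in older marrow. SLC1A6 had 0.21 in cerebellum and -0.19 in cortex, and was not well above background at either stage in liver, kidney, spleen or bone marrow. SLC7A4 had -0.73 in spleen and 0.53 in kidney, and SLC16A13 had 0.45 in hypothalamus and -0.38 in liver. SLC7A8 was at least 1.89-fold higher in older kidneys and was not well above background at either stage in the other 6 tissues. Of all genes, 18.6% were called in this test.

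No sample of the 20 groups of 4 behind the age calls lay beyond Dixon's 95% critical value, which chance exceeds in about 1 of 20 groups.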

How the results depend on the processing

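Alternatives by member were run for the 3 largest differences per direction and tissue or pair and for the calls with age, and none of these turned direction. Of 504 alternative values for 42 tissue calls, 498 kept the call, and the 6 losses came with the offset of 50. For 22 calls between pairs of tissues 167 of 176 were kept, but for the 10 calls with age only 93 of 180, and 9 of the 10 were lost at least once.

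Leaving out 1 of the 8 samples gave counts of members called with age from 0 to 2 in cerebellum, 0 to 2 in cortex, 0 to 0 in hypothalamus, 0 to 1 in liver, 1 (without the 1-week female) to 11 (without the 4-month female) in kidney, 0 to 3 in spleen and 0 to 2 in bone marrow. The cause was not tested for any count below.

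Without a fold limit the counts were 43 in cerebellum, 44 in cortex, 46 in hypothalamus, 43 in liver, 49 in kidney, 40 in spleen and 42 in bone marrow, and 29, 29, 17 and 37 for cerebellum and cortex, cerebellum and hypothalamus, cortex and hypothalamus, and liver and kidney. The offset of 50 gave 11 in cortex, 10 in hypothalamus, 14 in bone marrow, 6, 6 and 2 for the brain pairs, 1, 0 and 1 for age in cerebellum, liver and bone marrow, and 0 steps in testis and ovary. In spleen the 1 call with age under it was higher, while the call of the main setting was lower. The processed signal gave 1 and 8 for age in cerebellum and kidney (the 1 higher, where the 2 of the main setting were lower), 1 for sex, and 9 and 15 steps in testis and ovary. Median scaling gave 1 and 0 for age in cerebellum and cortex, and the median of probes 1 in cerebellum. The filter gave 2 and 8 for age in cortex and kidney. The authors' table gave 0, 9 and 0 for age in liver, kidney and spleen and 11 and 15 steps in testis and ovary. One fit over the 7 tissues gave 1 (higher), 0, 6, 11, 7 and 3 for age in cerebellum, cortex, liver, kidney, spleen and bone marrow, and with slide as a covariate 0, 0, 5, 7 and 4 in cerebellum, cortex, liver, spleen and bone marrow. With the 2-year male among the older samples the counts were 1 in cerebellum and 4 in liver. At 2-fold there were 26 steps in testis and 28 in ovary, beside 5 and 6 at 4-fold.

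A replicate block of sex gave counts with age of 0 in cerebellum, 0 in cortex and 0 in spleen, and of 1 in liver, which was lower in place of SLC38A3. The block of age and sex left the counts of tissues and pairs unchanged. Samples of a tissue in the same block of sex are known to share only the sex, and the labels tie no samples to 1 animal. Within each tissue the deviation of the males from the group mean was taken in the younger and in the older group. These deviations correlated over genes between -0.03 and 0.21, depending on the tissue. The interaction gave 9 to 11 members in its alternatives, of which 7 to 10 were among the 10.

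Signal over background limits members such as SLC6A4 and SLC18A2, well above background in 3 and 6 of 72 samples.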

Other observations

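The single renal pelvis array of the 2-year male was left out of all comparisons. In it SLC38A3 was 5.36, beside a mean of 9.37 over the 8 arrays of the kidney of the same age. SLC17A4 was 3.72 (7.68 in kidney), SLC1A1 was 7.70 (10.40) and SLC16A9 was 6.52 (8.82). SLC7A10 was 3.32 (6.04) and was not well above background in the renal pelvis. Each of these members was at least 4-fold lower in the renal pelvis. In all, 7 members passed 4-fold in either direction (2.33% of all genes did), and with 1 array there is no replicate.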
